A study of Mus musculus with 8 samples.

Results

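The genes described here are the secreted and membrane-bound metalloproteinases of the extracellular matrix and their inhibitors, in bone marrow mesenchymal stem cells of mice, sorted for the leptin receptor (LEPR+). Members were the rows of the gene count matrix whose mouse symbol begins with Mmp, Adamts, Adamtsl or Timp followed by a digit. The rule found 51 of 52636 genes: 23 MMP, 19 ADAMTS, 5 ADAMTSL and 4 TIMP genes. Bulk polyA RNA was sequenced from 8 libraries of C57BL/6 mice, 4 per group. Control mice had been given HEL-Ig, an IgG1 against hen egg lysozyme, and treated mice LTβR-Ig, a soluble decoy that captures ligands of the lymphotoxin β receptor (LTβR). Both were injected into a vein at 150 µg once a week for 3 weeks. The labels give no age, and do not say how many mice went into a library, so a p-value here reflects only the variation among libraries, which may be technical.

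Matrix metalloproteinases (MMPs) are zinc-dependent enzymes made as inactive precursors that together can cut most proteins of the extracellular matrix. Members of the ADAMTS family cut proteoglycans, the ends of procollagens and other secreted proteins, while ADAMTS-like proteins share the ancillary domains but have no catalytic domain. Tissue inhibitors of metalloproteinases (TIMPs) bind the active site of MMPs and of some ADAMTS enzymes. In bone, the collagenase MMP13 and the membrane-anchored MMP14 are known for their part in matrix remodelling, and neutrophils store MMP8 and MMP9 in granules.

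Total gene counts lay between 52378101 and 64403177 per library. Markers that define the sorted cells were present throughout: all 8 of the fixed LEPR+ stromal markers had counts in every library, with Lepr at 3159 to 4498 CPM (TMM-scaled counts per 1e+06). Genes of proteins the sort selects against were low but not absent, with Ptprc (CD45) at 21.7 to 61.1 CPM. Neutrophil, erythroid and megakaryocyte markers were also present. The erythroid markers summed to 15334 to 47467 CPM in controls and 15379 to 35935 CPM in treated libraries. The LEPR+ stromal markers summed to 24001 to 30755 and 26568 to 34355 CPM, most of it Cxcl12 (13393 to 21792 CPM over the 8 libraries). Of these 8 markers, 6 had a fitted log2 fold change below 0 and 2 above. Kitl (-0.58) and Pdgfra (-0.29) were lower at an unadjusted edgeR p under 0.05, as were 2.93% of all tested genes. Both were lower without overlap between groups, as were 2.53% of all tested genes. LTβR-Ig replicate 3 had the highest summed endothelial level, 182 CPM against 23 to 83.6 CPM in the other 7 libraries. In bulk RNA, fewer cells of a type and less RNA per cell cannot be told apart.

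A cluster of 10 MMP genes lies on chromosome 9, between 7272514 and 7699585 in GRCm38 (mm10), and 2 of its genes carried nearly all of its counts. Mmp13, which encodes the main collagenase of rodent bone, had 593059 counts over the 8 libraries and Mmp8, the neutrophil collagenase, 21792. Mmp3 (stromelysin 1), Mmp10 (stromelysin 2), Mmp12 (macrophage elastase) and Mmp27 had at most 336 counts each, and Mmp1a, Mmp1b, Mmp20 (enamelysin) and Mmp7 (matrilysin) had 0. In RefSeq promoters of build GRCm38.p6, matched by symbol for 36 of the 51 members, an AP-1 motif (TGANTCA, the same on both strands) stood within 250 bases upstream of a start in 8 members, in Mmp12 and Mmp7 at only 1 of their 2 starts. All 8 belong to the 10 genes of this cluster. Of all 32851 promoters in the table, 6.75% hold the motif in the same window. The 120 bases before the RefSeq start are shown for Mmp13, for its neighbours Mmp3, Mmp10 and Mmp1a, which had few counts or none, and for Mmp8, which has no match. Capitals mark the AP-1 motif.
Mmp13 (chr9:7272394-7272513, + strand): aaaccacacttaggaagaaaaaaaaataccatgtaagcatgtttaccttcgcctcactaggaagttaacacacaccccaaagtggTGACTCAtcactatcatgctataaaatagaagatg
Mmp3 (chr9:7445702-7445821, + strand): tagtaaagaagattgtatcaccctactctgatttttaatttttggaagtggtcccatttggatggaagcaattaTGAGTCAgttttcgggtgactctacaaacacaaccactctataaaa
Mmp10 (chr9:7502222-7502341, + strand): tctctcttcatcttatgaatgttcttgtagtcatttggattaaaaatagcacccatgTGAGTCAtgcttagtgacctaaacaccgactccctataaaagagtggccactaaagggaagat
Mmp1a (chr9:7464021-7464140, + strand): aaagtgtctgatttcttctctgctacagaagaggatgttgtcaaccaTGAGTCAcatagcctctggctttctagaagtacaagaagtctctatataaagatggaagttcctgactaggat
Mmp8 (chr9:7558309-7558428, + strand): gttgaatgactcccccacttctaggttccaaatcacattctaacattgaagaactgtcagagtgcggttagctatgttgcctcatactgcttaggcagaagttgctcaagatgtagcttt

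The motif stood before genes at very different levels. Its first base lay 35 bases before the Mmp13 start and 46, 63 and 73 bases before those of Mmp3, Mmp10 and Mmp1a. None of the 8 AP-1 matches overlapped a match to the other motifs searched on both strands, which were the TATA box (TATAAA), the RUNX motif (TGTGGT) and the κB motif. Mmp13 also had a TATA box and a RUNX match. A κB match, the motif bound by NF-κB, through which LTβR signals, was found in 4 members (Adamts9, Adamts20, Mmp12 and Mmp25) and in 7.25% of all promoters. A match describes letters and is not a measured binding site.

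**Figure D1:**
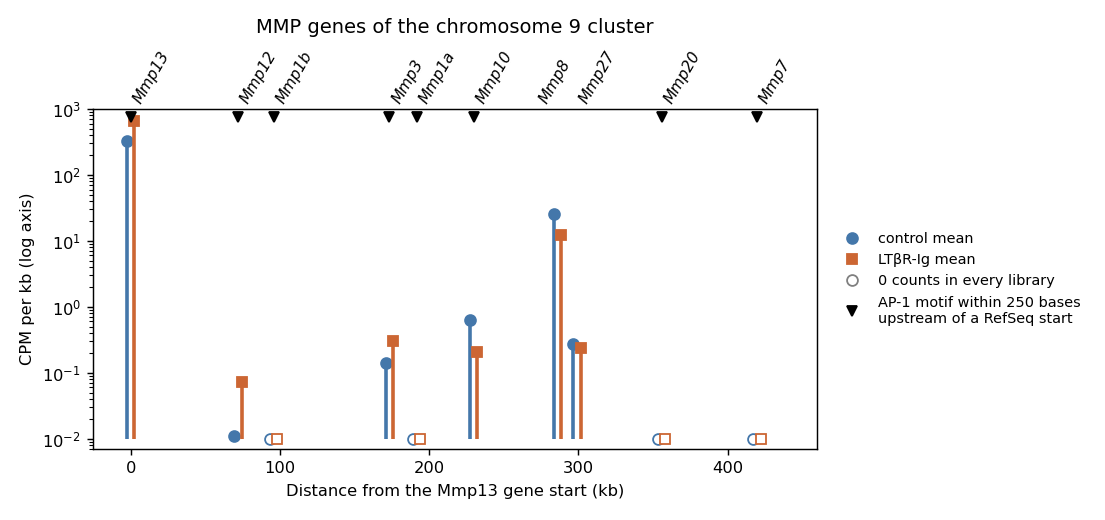
Mean level of each MMP gene of the chromosome 9 cluster, in CPM per kb of merged exons on a log axis, against the distance of its start from that of Mmp13. Blue circles are control and orange squares LTβR-Ig means (n = 4 each), open symbols mark 0 counts in all 8 libraries, and triangles mark an AP-1 motif. Mmp13 stands at 327 and 653 CPM per kb, and of its 9 neighbours only Mmp8 exceeds 1 CPM per kb.

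Levels were compared between genes per length, as CPM per kb of merged exons. Mmp13 was the highest member, at 327 ± 19.8 CPM per kb in control libraries (SD, n = 4). It was followed by the inhibitor gene Timp2 at 62.0 ± 5.72, the procollagen N-proteinase gene Adamts2 at 46.1 ± 3.48, Timp1 at 42.6 ± 7.82 and Mmp23 at 39.6 ± 3.67 CPM per kb (SD, n = 4 per group). The mean of Timp1 differed from those of Adamts2 and Mmp23 by less than its own SD, while Adamts2 and Mmp23 differed by more than the SD of either. Mmp13 alone made up 69.8 ± 3.17% of the summed CPM per kb of all 23 MMP genes in controls, against 80.9 ± 7.64% in treated libraries (SD, n = 4 per group). The next MMP genes, Mmp8, Mmp14 (membrane type 1), Mmp11 (stromelysin 3), Mmp2 (gelatinase A) and Mmp9 (gelatinase B), stood between 11.9 and 25.7 CPM per kb in control libraries.

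Of the 51 members, 38 passed the filter on low counts and were tested. Among the 13 others, 8 had 0 counts in every library: Mmp1a, Mmp1b, Mmp7, Mmp20, Mmp21, Adamts16, Adamts19 and Adamts20. A count of 0 allows a level of up to 0.0466 to 0.0573 CPM, depending on the library (3 counts, counting error only). Mmp12, Adamts6, Adamts8, Adamts18 and Adamtsl2 had 89 to 169 counts in all, each with 0 in at least 4 libraries. A further 16 members were tested but had a mean under 10 CPM, and none of them had an unadjusted p under 0.05. For Adamts7, which overlaps Tbc1d2b, reads of the partner cannot be told apart without a stated strand setting.

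**Figure D2:**
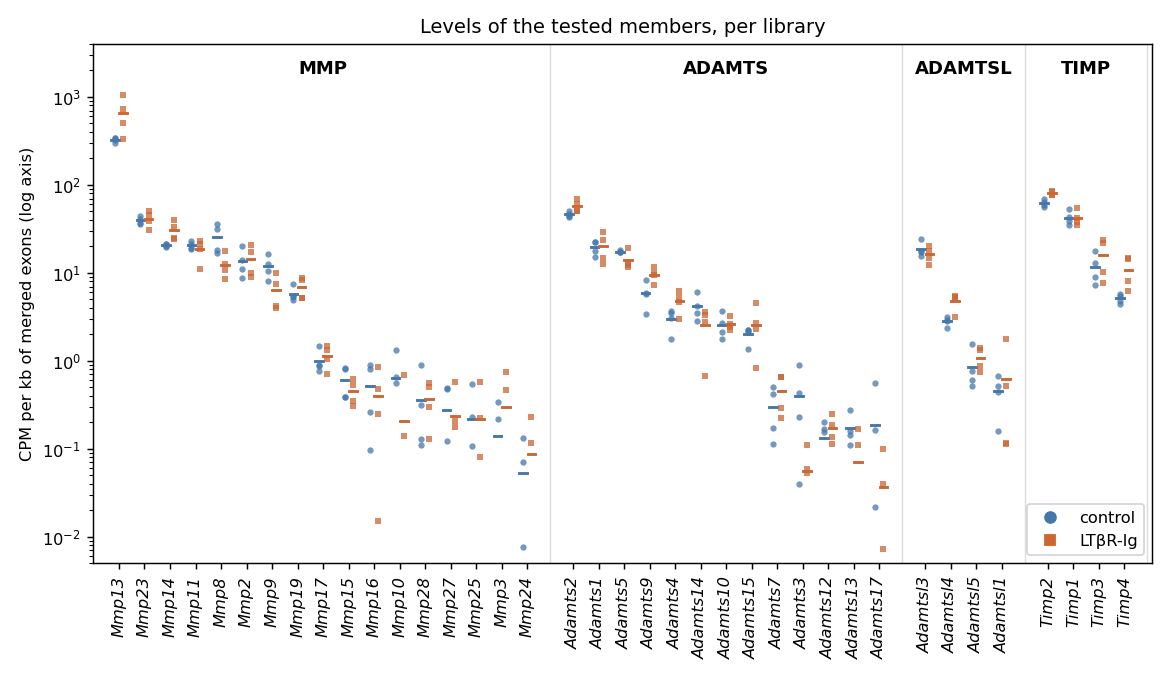
Level of each of the 38 tested members in every library, in CPM per kb of merged exons on a log axis, sorted by mean within each family. Blue circles are control and orange squares LTβR-Ig libraries, bars are group means (n = 4), and points under 0.005, zeros included, are not drawn. Levels run over a wide range, from Mmp13 at 327 CPM per kb in controls down to Mmp24 at 0.0532.

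The comparison asks which of these genes differed after LTβR signalling was blocked. No member passed an adjusted p of 0.05 in edgeR's quasi-likelihood test over 16045 genes, where 6 genes (0.0374%) passed. At an unadjusted p under 0.05, 7 of the 38 tested members were higher with LTβR-Ig: Mmp13, Mmp14, Timp2, Timp4, Adamts2, Adamts9 and Adamtsl4. Of all genes tested, 3.39% were higher at that p. Another 2 members, Mmp8 and Mmp9, were lower, as were 2.93% of all genes. The 7 are a share of 18.4% of the tested members and the 2 a share of 5.26%. All 9 belong to the 22 members with a mean of at least 10 CPM, a level at which 4.56% of all tested genes were higher and 3.79% lower. The median log2 fold change was 0.07 over the 38 members and 0.00 over all tested genes. DESeq2's Wald test gave 2 members an adjusted p under 0.05, Timp4 and Mmp13, and called 0.548% of all genes higher and 0.692% lower. Limma-voom called 0 members and 14 genes (0.0873%) in all.

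**Figure D3:**
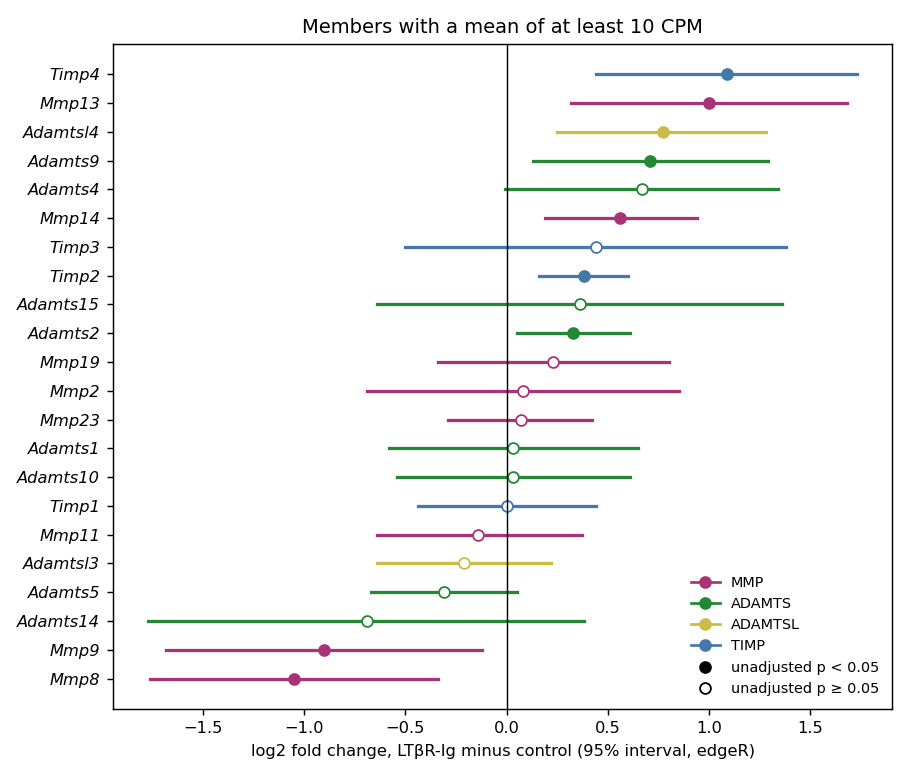
Log2 fold change of the 22 members with a mean of at least 10 CPM, LTβR-Ig minus control, as dots with 95% intervals from edgeR, coloured by family. Filled dots have an unadjusted p under 0.05. Timp4 and Mmp13 stand highest, at 1.09 and 1.00, and Mmp9 and Mmp8 lowest, at -0.90 and -1.05.

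Among the collagenases, Mmp13 stood at 906, 914, 798 and 874 CPM in control replicates 1 to 4. In LTβR-Ig replicates 1 to 4 it stood at 1349, 1959, 888 and 2784 CPM. Of the treated libraries 3 lay above every control, and replicate 3 lay inside the control range, so the groups overlapped. The means were 873 ± 52.9 and 1745 ± 819.8 CPM (SD, n = 4 per group). The log2 fold change of Mmp13 (ENSMUSG00000050578.10, chromosome 9, 7272514 to 7283331) was 1.00 (SE 0.30, edgeR adjusted p = 0.482, DESeq2 adjusted p = 0.0375). Without LTβR-Ig replicate 4 it was 0.68. Osteoblasts are known to make MMP13, and the 7 osteoblast markers were not ordered alike in the treated libraries. LTβR-Ig replicate 3, lowest for Mmp13, was highest of its group for Sp7 (50.3 CPM), Alpl (662 CPM), Bglap (1702 CPM) and Col1a1 (6731 CPM), but lowest for Ibsp (5610 CPM) and between the others for Dmp1 and Spp1. Ibsp, the most abundant of the 7, was at 9243, 15373, 5610 and 15234 CPM in treated replicates 1 to 4. Treated replicates 2 and 4 were the highest of their group for Ibsp, Spp1 and Mmp13, and the lowest for Sp7 and Alpl. In control replicates 1 to 4 Ibsp was at 9906, 9395, 11527 and 16746 CPM. For Ibsp, control replicate 4 lay above every treated library. For Mmp13, the highest control was replicate 2. Spp1 was at 717, 747, 1320 and 2181 CPM in control replicates 1 to 4, against 1215, 2334, 1607 and 2442 CPM in the treated ones. Of the 7 markers, 6 had a fitted log2 fold change above 0 and 1, Ibsp, below 0 (-0.07), with a median of 0.61. Sp7 and Alpl had 0.95 each, Dmp1 0.91, Spp1 0.61, Bglap 0.45 and Col1a1 0.41. Only Sp7 and Alpl had an unadjusted edgeR p under 0.05, beside 3.39% of all tested genes higher at that p. Alpl alone was higher without overlap between groups, as were 2.36% of all tested genes. The 7 markers summed to 11705 to 25314 CPM in controls and 12692 to 21187 CPM in treated libraries, and their part in the Mmp13 difference was not tested.

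Mmp14 encodes a membrane-anchored collagenase that, together with TIMP2, activates the precursor of MMP2 at the cell surface. Its level was 120.3, 118, 128 and 127 CPM in the control replicates and 144, 239, 149 and 196 CPM in the LTβR-Ig replicates. All 4 treated libraries lay above all 4 controls. This held for 4 members (Mmp14, Timp2, Timp4 and Adamtsl4) and for 2.36% of all tested genes, and the reverse for 0 members and 2.53% of genes. For Mmp14 (ENSMUSG00000000957.10, chromosome 14, 54431612 to 54445364) the log2 fold change was 0.56 (SE 0.17, edgeR adjusted p = 0.478). Mmp2, the substrate of that activation, stood at 29.5, 36.9, 46.9 and 69.0 CPM in controls, against 30.5, 33.8, 58.8 and 69.7 CPM in treated libraries. Its groups overlapped over nearly the whole range, and its log2 fold change was 0.08 (95% interval -0.69 to 0.85). The ratio of Mmp14 to Timp2 in CPM per kb was 0.336 ± 0.0307 in controls, against 0.376 ± 0.0734 in treated libraries (SD, n = 4 per group), with overlapping groups.

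The other membrane-type MMP genes were low. Mmp17 had 6.65 ± 2.17 CPM in control libraries, Mmp16 4.47 ± 3.42 and Mmp15 3.24 ± 1.33 (SD, n = 4 per group). Mmp24 and Mmp25 were at 0.249 ± 0.293 and 1.17 ± 1.24 CPM in the same libraries (SD, n = 4 per group). None of these 5 had an unadjusted edgeR p under 0.05. Mmp11, which encodes stromelysin 3, stood at 63.9, 51.3, 53.1 and 58.9 CPM in controls, against 52.5, 64.8, 30.5 and 59.0 CPM in treated libraries. Its log2 fold change was -0.14 (95% interval -0.64 to 0.37), with LTβR-Ig replicate 3 the lowest of the 8. Mmp23 stood at 96.8, 87.3, 103 and 83.8 CPM in controls, against 91.7, 117, 107 and 72.6 CPM in treated libraries. The treated libraries spread to both sides of the controls, with a log2 fold change of 0.07 (95% interval -0.29 to 0.42). Mmp19 had a fitted change of 0.23 on the log2 scale (95% interval -0.34 to 0.80). Mmp28 was low, at 0.431 to 3.46 CPM in controls and 0.506 to 2.16 CPM in treated libraries.

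**Figure D4:**
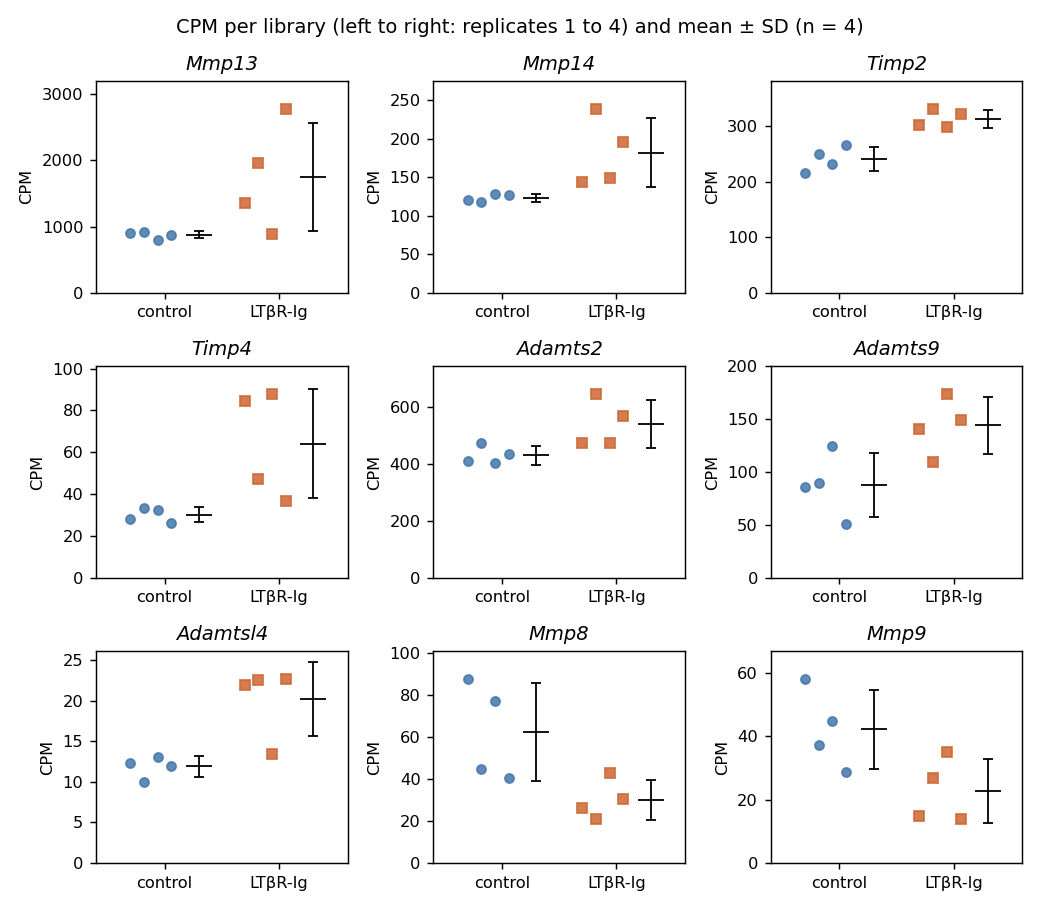
CPM in each library for the 9 members with an unadjusted edgeR p under 0.05, with replicates 1 to 4 from left to right, blue circles for control and orange squares for LTβR-Ig. The black bar and whiskers are the mean ± SD (n = 4). Timp2, Timp4, Mmp14 and Adamtsl4 do not overlap between groups, and LTβR-Ig replicate 3 is lowest of its group for Mmp13 but highest for Timp4.

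TIMP2 inhibits most MMPs, and Timp2 was the most abundant inhibitor gene. Timp2 stood at 216, 251, 232 and 267 CPM in controls, against 303, 332, 298 and 322 CPM in treated libraries. The groups did not overlap, and the spread within each was small beside the gap between the means, 241 ± 22.3 and 314 ± 16.3 CPM (SD, n = 4 per group). The log2 fold change of Timp2 (ENSMUSG00000017466.9, chromosome 11, 118301069 to 118355740) was 0.38 (SE 0.10, edgeR adjusted p = 0.354). Timp4 encodes an inhibitor known for its restricted tissue distribution. It stood at 28.2, 33.6, 32.6 and 26.4 CPM in controls, against 84.5, 47.2, 88.0 and 36.7 CPM in treated libraries. Its groups did not overlap either, and replicates 1 and 3 were the highest. For Timp4 (ENSMUSG00000030317.8, chromosome 6, 115241892 to 115252205) the log2 fold change was 1.09 (SE 0.28, edgeR adjusted p = 0.385, DESeq2 adjusted p = 0.0264). Timp4 was high in the treated library with the most endothelial marker RNA (replicate 3, 182 CPM) and in the one with the least (replicate 1, 23 CPM), and the part of endothelial RNA in the difference was not tested.

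The remaining inhibitor genes had overlapping groups. Timp3, whose product is bound to the matrix and also inhibits ADAMTS enzymes, stood at 58.6, 72.6, 105 and 144 CPM in controls, against 62.2, 82.3, 195 and 178 CPM in treated libraries. Its spread within groups was wide, with a log2 fold change of 0.44 (95% interval -0.50 to 1.38). The treated library was higher than the control of the same number in all 4 cases. What same-numbered libraries share is not stated, and the share of all genes with this order was not counted. Timp1, the inhibitor gene best known as inducible, stood at 34.3, 31.5, 47.4 and 37.9 CPM in controls, against 31.3, 48.6, 33.6 and 37.4 CPM in treated libraries. The means of Timp1 were 37.8 and 37.7 CPM, and the 95% interval of its log2 fold change was -0.44 to 0.44. Timp4 made up 4.26 ± 0.683% of the summed TIMP CPM per kb in controls, against 7.38 ± 3.29% in treated libraries (SD, n = 4 per group), and Timp2 51.3 ± 4.51% and 53.9 ± 3.16%. Timp1, Timp3 and Timp4 overlap the synapsin genes Syn1, Syn3 and Syn2 on the other strand. These reached at most 1.13, 0.491 and 3.79 CPM.

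Of the procollagen N-proteinases, which trim the amino ends of fibrillar procollagens, only Adamts2 was abundant. Adamts2 stood at 411, 475, 403 and 435 CPM in controls, against 475, 648, 474 and 571 CPM in treated libraries. Replicates 2 and 4 of the treated group lay above every control, and the other two beside the highest control. The log2 fold change of Adamts2 (ENSMUSG00000036545.8, chromosome 11, 50602084 to 50807573) was 0.33 (SE 0.12, edgeR adjusted p = 0.669). Leaving out any of control replicates 1 and 3 and treated replicates 2 and 4 also took its unadjusted p above 0.05. Adamts14 had 21.6 ± 7.14 CPM in controls, against 13.4 ± 6.81 CPM in treated libraries (SD, n = 4 per group), with overlapping groups. Adamts3 was at 0.214 to 4.83 CPM in control libraries and 0 to 0.6 CPM in the others, with overlapping groups.

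Several ADAMTS enzymes cut aggrecan, versican and related proteoglycans. Adamts9, which encodes a versican-cleaving enzyme, stood at 86.1, 89.5, 125 and 51.1 CPM in controls, against 141, 109.9, 174 and 149 CPM in treated libraries. Of the treated libraries 3 lay above every control, and replicate 2 lay below control replicate 3. For Adamts9 (ENSMUSG00000030022.14, chromosome 6, 92772699 to 92943492) the log2 fold change was 0.71 (SE 0.26, edgeR adjusted p = 0.649), and the unadjusted p was above 0.05 without LTβR-Ig replicate 3. Adamts1 stood at 119, 119, 94.1 and 81.0 CPM in controls, against 79.1, 124, 66.1 and 154 CPM in treated libraries. Treated libraries lay on both sides of the controls, and the log2 fold change was 0.03 (95% interval -0.58 to 0.65). Adamts5, the main aggrecanase gene of mouse cartilage, stood at 188, 194, 186 and 185 CPM in controls, against 126, 133, 206 and 141 CPM in treated libraries. The controls lay close together, 3 treated libraries below all of them and replicate 3 above, and Adamts5 did not reach the unadjusted threshold (log2 fold change -0.31, edgeR adjusted p = 0.876). Adamts15 had a fitted change of 0.36 on the log2 scale (95% interval -0.64 to 1.36), and Adamts4, an aggrecanase gene, did not reach the unadjusted threshold.

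Among the remaining ADAMTS genes Adamts10, whose product acts on fibrillin microfibrils, was the highest per length. Adamts10 had 21.3 ± 6.92 CPM in controls, against 21.8 ± 3.42 CPM in treated libraries (SD, n = 4 per group) and a log2 fold change of 0.03 (95% interval -0.54 to 0.61). The controls stood at 30.7, 22.0, 17.6 and 14.8 CPM and the treated libraries at 21.9, 18.5, 20.1 and 26.5 CPM, all 4 of the latter inside the control range. Adamts7, Adamts12, Adamts13 and Adamts17 had means under 3 CPM in both groups. Their 95% intervals all included 0.

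Of the ADAMTS-like genes, Adamtsl3 was the most abundant and Adamtsl4 the one with an unadjusted p under 0.05. Adamtsl4, whose product binds fibrillin microfibrils, stood at 12.3, 10.0, 13.1 and 12 CPM in controls, against 22.0, 22.6, 13.4 and 22.7 CPM in treated libraries. The groups did not overlap, but replicate 3 lay just above the highest control while the other 3 lay close together. The log2 fold change of Adamtsl4 (ENSMUSG00000015850.11, chromosome 3, 95676201 to 95687917) was 0.77 (SE 0.23, edgeR adjusted p = 0.478). Adamtsl3 stood at 134, 189.8, 121 and 139 CPM in controls, against 156, 96.4, 139 and 113 CPM in treated libraries. Its groups overlapped, with a log2 fold change of -0.21 (95% interval -0.64 to 0.22). Adamtsl1 and Adamtsl5 were at 5.75 ± 2.74 and 4.04 ± 2.22 CPM in control libraries (SD, n = 4 per group), and neither had an unadjusted edgeR p under 0.05.

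The treated libraries were not ordered alike for all members. Replicates 2 and 4 had the highest values of Mmp13, Mmp14, Timp2 and Adamts2, and replicates 1 and 3 those of Timp4. Replicate 3 had the highest Timp3, Adamts9 and Adamts5 and the lowest Mmp11 and Adamts14 of the 8 libraries. Summed over all 51 members, CPM were 2781, 2889, 2734 and 2816 in the control replicates and 3324, 4225, 3129 and 5154 in the LTβR-Ig replicates. Mmp13 made up most of that difference: without its own values the sums were 1875, 1974, 1936 and 1942 CPM in controls, against 1975, 2266, 2242 and 2370 CPM in treated libraries.

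The 2 members lower at an unadjusted p under 0.05 are both proteinases stored in neutrophil granules. Mmp8 stood at 87.5, 44.7, 76.8 and 40.6 CPM in controls, against 26.1, 20.8, 42.9 and 30.4 CPM in treated libraries. Of the treated libraries 3 lay below every control. For Mmp8 (ENSMUSG00000005800.3, chromosome 9, 7558456 to 7568485) the log2 fold change was -1.05 (SE 0.31, edgeR adjusted p = 0.478). Mmp9, also made in quantity by osteoclasts, stood at 58.2, 37.4, 44.9 and 28.7 CPM in controls, against 14.9, 26.7, 35.1 and 14 CPM in treated libraries. Again 3 treated libraries lay below every control. The log2 fold change of Mmp9 (ENSMUSG00000017737.2, chromosome 2, 164940780 to 164955850) was -0.90 (SE 0.34, edgeR adjusted p = 0.683). Its unadjusted p was no longer under 0.05 when control replicate 1, control replicate 3, LTβR-Ig replicate 1 or LTβR-Ig replicate 4 was left out.

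Neutrophil markers were measured in the same libraries, although the sort removes CD45 positive cells. All 10 had counts in every library and a fitted log2 fold change below 0, and 0 had an unadjusted edgeR p under 0.05. Their sum was 8647, 3978, 7205 and 9425 CPM in the control replicates and 4539, 7229, 9082 and 6048 CPM in the LTβR-Ig replicates, with overlapping groups and a ratio of means of 0.919. Of the single markers, the mature neutrophil genes Retnlg, Cxcr2 and Ly6g had log2 fold changes of -0.73, -1.17 and -0.07. The granule gene Ngp had -0.02. Retnlg stood at 179, 61.8, 163 and 101 CPM in control replicates 1 to 4 and at 41.9, 67.9, 104 and 89.9 CPM in the treated ones. As for Mmp8, control replicates 1 and 3 were the highest of the 8 libraries and treated replicate 3 the highest of its group. Cxcr2 stood at 7.6, 8.08, 4.46 and 15.8 CPM in controls, against 2.06, 5.15, 7.34 and 1.46 CPM in treated libraries. Its highest library was control replicate 4, and control replicate 3 was the lowest of its group. Treated replicate 3 was again the highest of its group. The osteoclast markers summed to 240.2 to 259 CPM in controls, against 245 to 319 CPM in treated libraries. Most of that sum was Ctsk, at 194 to 211 CPM in controls and 209 to 266 CPM in treated libraries. Oscar and Ocstamp reached at most 1.3 and 0.107 CPM, and Calcr was at 0 throughout. The part of either cell type in the Mmp8 and Mmp9 differences was not tested.

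**Figure D5:**
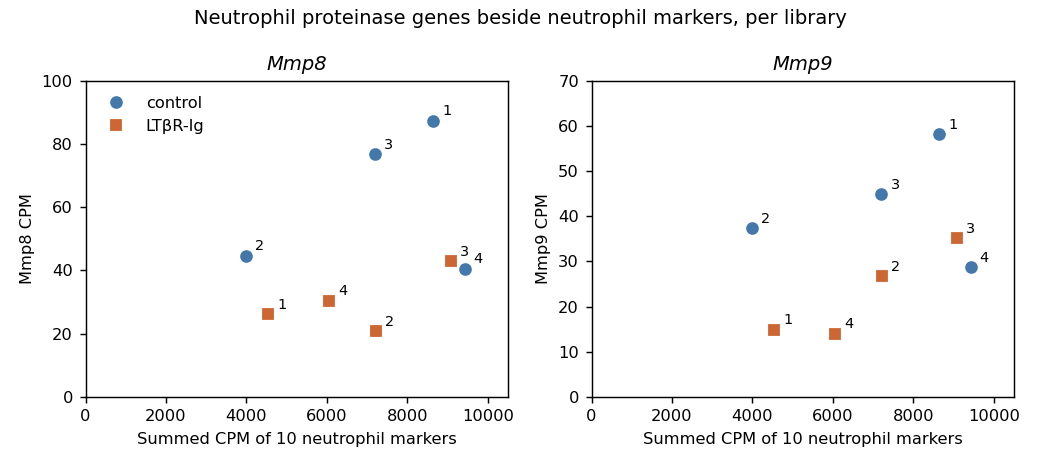
CPM of Mmp8 (left) and Mmp9 (right) against the summed CPM of 10 neutrophil markers in each library, with the replicate number beside each point, blue circles for control and orange squares for LTβR-Ig. The marker sums overlap between groups, 3978 to 9425 CPM in control and 4539 to 9082 CPM in LTβR-Ig. For each gene 3 of 4 treated libraries lie below every control, and the part of neutrophil RNA in this was not tested.

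Genes that act with these proteinases were taken from 4 lists, chosen with earlier results of these data known. None of their members passed an adjusted p of 0.05 in edgeR. Of 15 tested activators, inhibitors and clearance receptors, 4 were higher (unadjusted p under 0.05) and 0 lower, beside 3.39% higher and 2.93% lower of all tested genes, with a median log2 fold change of 0.26. Lrp1, the endocytic receptor that clears MMP13, MMP9, ADAMTS5 and TIMP complexes, stood at 418 ± 53.2 CPM in controls, against 784 ± 106 CPM in treated libraries (SD, n = 4 per group), with groups that did not overlap (log2 fold change 0.91, edgeR adjusted p = 0.0746). Bsg, which encodes the MMP inducer basigin, had 0.33 (edgeR adjusted p = 0.561). The syndecan gene Sdc4 had 0.57 and the serpin gene Serpine2 0.41, both with overlapping groups.

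Of 22 tested substrates, 7 were higher (unadjusted p under 0.05) and 2 lower, with a median log2 fold change of 0.37. Of all tested genes 3.39% were higher and 2.93% lower at that p, with a median of 0.00. Tnc, a matrix glycoprotein cut by several MMPs, had 0.71 (edgeR adjusted p = 0.0506), Tnfsf11 (RANKL) 1.26 (edgeR adjusted p = 0.251) and the fibrillar collagen gene Col3a1 0.45 (edgeR adjusted p = 0.34). Kitl, the stem cell factor gene, whose membrane form can be shed, had -0.58 (edgeR adjusted p = 0.125). Of 10 tested ADAM genes, which encode related membrane sheddases, 1 was higher and 1 lower at that p, beside the same 3.39% and 2.93% of all genes. Adam9 had 0.42 (edgeR adjusted p = 0.657). The soluble family member Adamdec1 stood at 84.7 ± 12.1 CPM in controls, against 45.7 ± 7.10 CPM in treated libraries (SD, n = 4 per group), with groups that did not overlap (log2 fold change -0.89, edgeR adjusted p = 0.142). Adam12 and Adam19 had -0.38 and 0.40, with overlapping groups. Of 15 tested AP-1 subunits and other inducers, 0 were higher and 0 lower at that p, with a median of 0.08. Among those with the smallest p, Il1b had 0.66, Ets2 -0.34, Jund 0.46 and Fosb 0.68, all with overlapping groups.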

How the data were processed

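The authors deposited 1 matrix of raw counts per gene for 8 libraries (whole numbers, no normalization). Tools listed without roles, per the submitters' processing notes, were HISAT2 and HTSeq, with build mm10. Tool versions, gene annotation and strandedness: not given in the sources used here. Paired reads were 76 bp long, per the labels' protocols. Symbols, coordinates and merged exon lengths came from GENCODE M21 (GRCm38), where 52403 of 52636 unversioned IDs matched. Unmatched IDs held at most 0.148% of counts.

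Counts were tested with edgeR 4.0.16 (R 4.3.3; TMM; filterByExpr, minimum count 10 and total 15; robust quasi-likelihood F test; Benjamini-Hochberg over 16045 genes; threshold 0.05) and checked on simulated counts. Each SE was derived from the fitted change and its F statistic. In a check for duplicate libraries, replicates of a group differed beyond sampling noise (chi-square per degree of freedom 150 to 283). None was therefore taken for a copy of another, and all were kept. The design text names 4 pairs without saying what they share, so no pairing entered the test. Alternatives used DESeq2 1.42.0, limma 3.58.1, other scalings and filters, a replicate block and left-out libraries. The members and lists were chosen with earlier results of these data known. Full values are given for members with an unadjusted p under 0.05, the highest per length in each subfamily, all TIMP genes, and Mmp2, Mmp9, Mmp13 and Mmp14. Other members, single markers and the sum without Mmp13 were chosen after their values were seen. Related lists are represented by the 4 genes of smallest p. Motifs were searched in RefSeq promoters (GRCm38.p6).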

Additional observations from a re-analysis of the deposited data

Results flagged for a closer look

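In 76 groups of 4 libraries, 1 for each of the 38 tested members in each condition, 2 had a library far from the other 3. Chance gives this for about 1 in 20 groups. For Adamtsl4 it was LTβR-Ig replicate 3, with 13.4 CPM where the other treated libraries had 22.0 to 22.7. For Adamts15 it was control replicate 3, with 14 CPM where the other controls had 22.3 to 23.4.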

How the results depend on the processing

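Without each library in turn, the number of genes past the adjusted threshold ran from 2 (without control replicate 3) to 9, against 6. It was 199 with DESeq2, 14 with limma-voom, 22 with the strict filter (at least 10 counts in 4 libraries and a mean of 5 CPM) and 1 when control replicate 3 and LTβR-Ig replicate 2 were left out together, the ends of the first principal component, a setting chosen after seeing the data. Members past it numbered 2 with DESeq2 and 0 in every other setting run. Members higher at an unadjusted p under 0.05 ran from 6 to 8 without each library (5 without both libraries named) and members lower from 1 to 3, with 1 lower without control replicate 1, LTβR-Ig replicate 1 or 4, or both libraries named. The median log2 fold change of tested members was 0.20 with the strict filter and 0.05 to 0.20 without each library. With the replicate number as a block, 1 gene passed, 7 members were higher and 2 lower. The design text speaks of 4 pairs without saying what a pair shares. Over all genes, deviations of same-numbered libraries correlated at 0.000129 to 0.0749, and 2 of 4 controls correlated best with their own number. This does not settle whether the libraries were paired. Summed erythroid markers were highest in replicates 3 and 4 and B and plasma cell markers in replicates 1 and 2 of both groups. Timp3 had 0.36 with the block and an adjusted edgeR p of 0.766.

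The 9 members with an unadjusted p under 0.05 kept their direction in all 16 settings. Mmp9 ran from -0.70 to -1.18 (unadjusted p under 0.05 in 11 settings), Adamts2 from 0.20 to 0.40 (11 settings), Mmp13 from 0.68 to 1.23, Mmp8 from -0.79 to -1.27, Timp2 from 0.33 to 0.43, Timp4 from 0.90 to 1.28, Adamtsl4 from 0.70 to 0.93, Adamts9 from 0.52 to 1.04 and Mmp14 from 0.40 to 0.67. Members near 0 turned: Adamts1 had -0.07 with limma-voom, -0.03 with the block, -0.10 without both libraries, and -0.20 to 0.21 over all settings. Timp1 had 0.01 with limma-voom and -0.15 to 0.13 over all settings, Mmp2 -0.15 to 0.35, Adamts10 -0.11 to 0.27, Mmp11 -0.30 to 0.06 (-0.26 to 0.06 without each library) and Mmp23 -0.04 to 0.18. The cause was not tested. At 4 libraries per group, members under 10 CPM had wide intervals.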
